A study of Mus musculus with 8 samples.

Results

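The proline and threonine tRNA genes described here are the rows of a small RNA table whose names give a tRNA gene number, the amino acid Pro or Thr and an anticodon. They were chosen by name alone, with no filter on level. There were 30 such rows of 964 in the table, 15 for proline and 15 for threonine, among 328 tRNA rows in all. The names give 3 proline isoacceptors, tRNA-Pro-AGG with 6 gene copies, tRNA-Pro-CGG with 3 and tRNA-Pro-TGG with 6, and 3 threonine isoacceptors, tRNA-Thr-AGT with 7 copies, tRNA-Thr-CGT with 4 and tRNA-Thr-TGT with 4. An isoacceptor is the set of tRNAs that carry the same amino acid and share an anticodon, and a copy is 1 gene of that set.

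The libraries were made from total RNA of mouse GMLPs, granulocyte-monocyte-lymphoid progenitors sorted from bone marrow. The 4 libraries labelled WT came from wild-type mice and the 4 labelled iMLL-ENL from mice with an inducible form of MLL-ENL, a leukaemia fusion of the histone methyltransferase MLL with the elongation factor partner ENL. Cells of both groups, the WT cells included, were kept in culture for 3 days with doxycycline before RNA was extracted, and libraries were prepared with a QIAseq kit meant for miRNA. The sources used here give no strain, age or promoter for the fusion. The labels do not say whether replicates came from separate mice, so the p-values measure the spread between these libraries, which may be technical. The rows are small non-coding RNAs and include no mRNA marker of GMLPs, so the cell identity was not checked here.

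Proline tRNAs read the CCN codons and threonine tRNAs the ACN codons, which are both boxes in which any base may stand in the last codon position. In tRNA-Pro-AGG and tRNA-Thr-AGT the A that opens the anticodon is deaminated to inosine by the ADAT deaminase, which lets a tRNA read codons ending in U, C or A. The anticodons TGG and TGT are the exact complements of codons ending in A, and CGG and CGT of those ending in G. An anticodon may also read codons that it does not match exactly. Proline tRNAs are charged by the prolyl part of the fused glutamyl-prolyl-tRNA synthetase and threonine tRNAs by threonyl-tRNA synthetase. RNA polymerase III transcribes all of these genes from promoter boxes that lie inside the tRNA itself.

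Sequences are shown for 1 gene of each amino acid, to show the difference at the anticodon by which the rows were named. A sequence could be read here for only 2 of the 33 proline and threonine genes in RefSeq, so these 2 may not be typical. Both are on GRCm38.p6, the proline gene read from GENCODE transcript sequence and the threonine gene from a RefSeq promoter window, and the anticodon is in capitals. The proline gene n-TPtgg2 lies at chr11:67291139-67291210 on the plus strand, within a retained-intron transcript of Myh8, and the threonine gene n-TTagt9 lies at chr7:35234770-35234843 on the minus strand, in the promoter window of Gm38989.
n-TPtgg2: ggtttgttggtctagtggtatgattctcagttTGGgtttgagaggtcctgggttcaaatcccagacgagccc
n-TTagt9: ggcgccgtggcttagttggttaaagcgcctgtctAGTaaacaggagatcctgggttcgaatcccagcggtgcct
The proline gene has 72 bases with the anticodon at bases 33 to 35, and the threonine gene has 74 with the anticodon at bases 35 to 37, counted from the 5′ end. The row names of the table do not pair with RefSeq gene names, so neither gene can be tied to 1 row.

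RefSeq lists 33 proline and threonine tRNA genes on 10 chromosomes of this assembly, of 430 tRNA genes. The 16 proline genes are 6 with AGG, 3 with CGG and 7 with TGG, all 72 bases long, and the 17 threonine genes are 9 with AGT, 4 with CGT and 4 with TGT, 72 to 74 bases long. Of the 16 proline genes 10 have another proline or threonine gene within 3000 bases, which for 4 of the 10 is a threonine gene, and of the 17 threonine genes 4 have one. In 4 places the neighbours are 1 proline and 1 threonine gene, as for n-TPagg4 and n-TTtgt3 on chromosome 14, which are 282 bases apart.

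The values are RPM, reads scaled to a library total of 1000000 with no division by length. Within each library they are whole multiples of a step, taken here as 1 read, worth 0.108 to 0.169 RPM, so that 5910000 to 9270000 reads stand behind the scale of a library. The worth of 3 reads, used as a floor for counting error alone, was 0.32 to 0.51 RPM. All tRNA rows together averaged 292631 ± 35840 RPM among the WT libraries and 213220 ± 14201 RPM among the iMLL-ENL libraries (SD, n = 4 each), with no overlap. WT replicate 2 stood apart, with a mean correlation of 0.908 with its group over tested rows. The remaining WT libraries had 0.955 to 0.968 and the iMLL-ENL libraries 0.990 to 0.994. Values without it are given beside the sums, the count of called copies and the ratio of proline to threonine tRNA. In bulk RNA, fewer cells of a type and less RNA per cell cannot be told apart, nor can whole tRNAs and tRNA fragments, since no read lengths were analysed here.

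All 3 proline isoacceptors were lower in iMLL-ENL than in WT cells on the deposited scale, and none of the 3 threonine isoacceptors passed the test. Sums over copies were compared with limma on log2(RPM + 1) across all 67 families of the table, where 17.9% of the sums were called lower and 26.9% higher at an adjusted p under 0.05. The 15 proline copies together gave 3086, 3264, 2573 and 2873 RPM in WT replicates 1 to 4 and 1980, 1601, 2278 and 2284 RPM in iMLL-ENL replicates 1 to 4. The lowest WT library thus lay above the highest iMLL-ENL library. How many of all sums were separated in either direction was not counted. Of all 964 single rows 7.99% were separated with iMLL-ENL lower and 29.3% with iMLL-ENL higher. The mean fell from 2949 ± 297 to 2036 ± 323 RPM (SD, n = 4 each), which is 0.690 of the WT level. The fit for amino acids was run over 40 sums, those of the amino acids and of the families of other RNA classes. Of these 40 sums 17.5% were called lower. The log2 fold change of proline tRNA was -0.54 ± 0.17 (SE), with an adjusted p of 0.026 by limma. Without WT replicate 2 the change was -0.49, with an adjusted p of 0.015 by limma, and the adjusted p rose to 0.075 without WT replicate 1 and 0.067 without iMLL-ENL replicate 1.

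tRNA-Pro-TGG, the most abundant of the 3, had summed levels of 1341, 1352, 1105 and 1286 RPM in the WT libraries and 888, 716, 1036 and 1016 RPM in the iMLL-ENL libraries. The groups did not overlap, and iMLL-ENL replicate 2 was the lowest library. The fitted log2 change was -0.49 ± 0.16 (SE) at an adjusted p of 0.034 by limma. This call was the least stable of the 3: the adjusted p was 0.094 without WT replicate 1, 0.061 without WT replicate 4, 0.070 without iMLL-ENL replicate 1 and 0.059 without iMLL-ENL replicate 2, where the change was -0.37. Without WT replicate 2 it was -0.45, with 0.026.

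tRNA-Pro-AGG, the inosine-bearing proline tRNA, had 988, 1089, 844 and 914 RPM in the WT libraries and 633, 523, 711 and 734 RPM in the iMLL-ENL libraries. Again no iMLL-ENL library reached the lowest WT library. The fitted log2 change was -0.57 ± 0.15 (SE) at an adjusted p of 0.015 by limma, and -0.50 without WT replicate 2. tRNA-Pro-CGG, which reads CCG, had 757, 823, 624 and 673 RPM in the WT libraries and 459, 361, 530 and 534 RPM in the iMLL-ENL libraries. It showed the same separation, with a log2 fold change of -0.62 ± 0.16 (SE), an adjusted p of 0.014 by limma, and -0.55 without WT replicate 2. The calls of tRNA-Pro-AGG and tRNA-Pro-CGG held when any 1 library was left out, with adjusted p of at most 0.044 and 0.041 by limma.

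The threonine tRNAs had fewer reads than these. tRNA-Thr-TGT, the most abundant, had 166, 173, 188 and 180 RPM in the WT libraries and 185, 164, 185 and 207 RPM in the iMLL-ENL libraries. The groups overlapped, with iMLL-ENL replicate 2 below all WT libraries and replicate 4 above all of them. The fitted log2 change was 0.07 ± 0.11 (SE) at an adjusted p of 0.67 by limma, and 0.06 without WT replicate 2. tRNA-Thr-CGT, which reads ACG, had 67.1, 43.8, 57.7 and 60.4 RPM in the WT libraries and 63.7, 56.0, 64.9 and 67.5 RPM in the iMLL-ENL libraries. WT replicate 2 was low and the other 7 libraries lay in 1 range; the fitted log2 change was 0.15 ± 0.15 (SE) at an adjusted p of 0.42 by limma, and 0.03 without WT replicate 2.

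tRNA-Thr-AGT, the inosine-bearing threonine tRNA, was the lowest of the 6. It had 29.96, 29.89, 25.7 and 26.5 RPM in the WT libraries and 38.48, 30.95, 33.66 and 35.97 RPM in the iMLL-ENL libraries. Every iMLL-ENL library lay above every WT library, but the test was not passed: the fitted log2 change was 0.30 ± 0.11 (SE) at an adjusted p of 0.056 by limma. It was 0.33 with an adjusted p of 0.027 by limma without WT replicate 2, and 0.35 with 0.047 without iMLL-ENL replicate 2. The 15 threonine copies together averaged 262 ± 10.7 RPM among the WT libraries and 283 ± 24.6 RPM among the iMLL-ENL libraries (SD, n = 4 each), a log2 fold change of 0.11 ± 0.09 (SE) with an adjusted p of 0.30 by limma, and 0.08 without WT replicate 2.

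**Figure D1:**
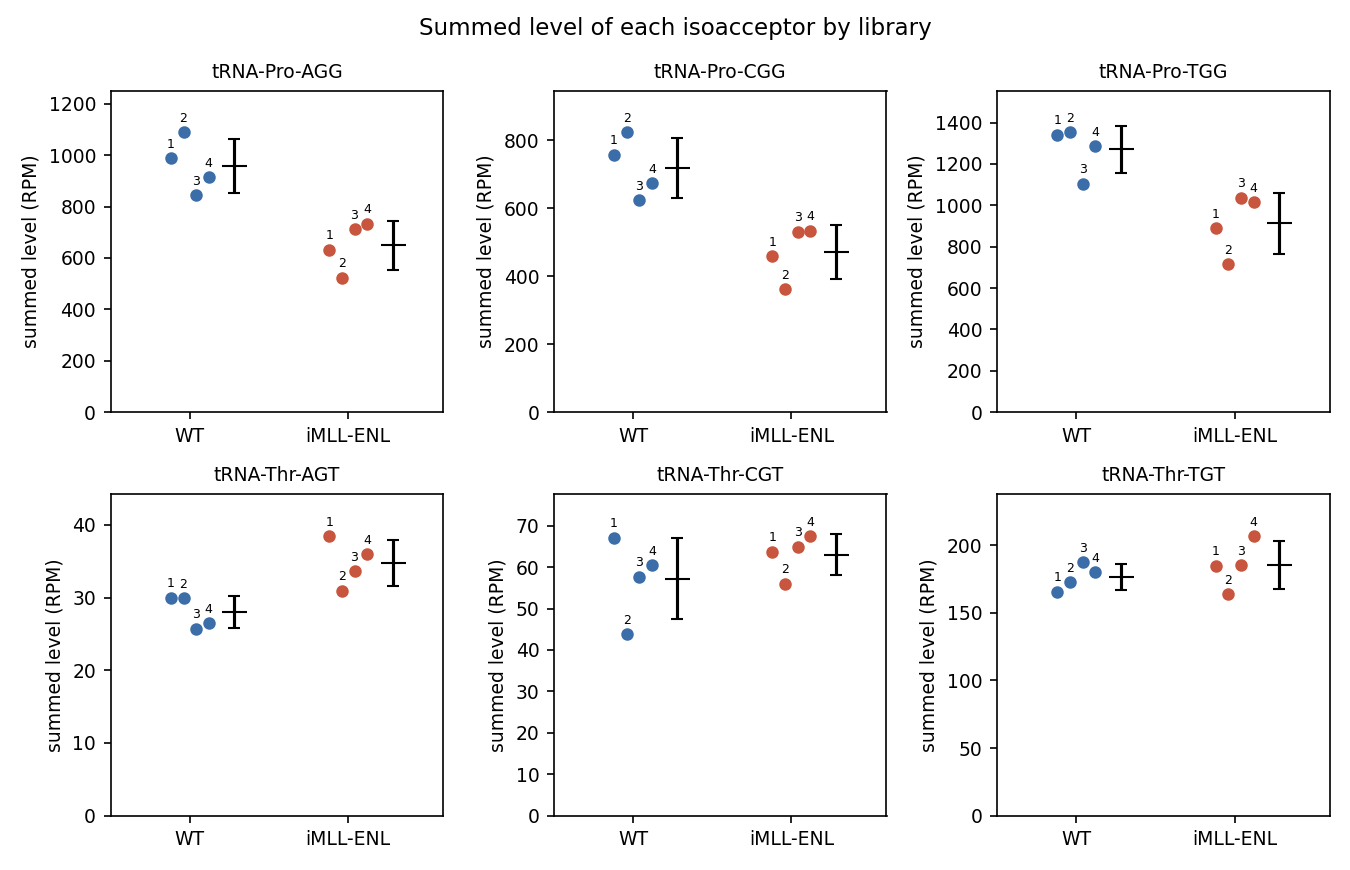
Summed level in RPM (y axis, from 0) of each proline (top) and threonine (bottom) isoacceptor in the 4 WT (blue) and 4 iMLL-ENL (red) libraries; numbers are replicates, and the black marks give the mean with the SD. The groups do not overlap in the 3 proline panels or for tRNA-Thr-AGT, and they overlap for tRNA-Thr-CGT and tRNA-Thr-TGT. Separation was not counted over all sums. Of single rows 7.99% were separated downward and 29.3% upward.

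The order of the levels was tRNA-Pro-TGG, tRNA-Pro-AGG, tRNA-Pro-CGG, tRNA-Thr-TGT, tRNA-Thr-CGT and tRNA-Thr-AGT, and each of the 8 libraries showed it. As the RefSeq genes differ by at most 2 bases in length, it is nearly the order of reads per length. How evenly the different tRNAs were turned into reads was not measured, so it may not be the order of their amounts. Neighbouring proline isoacceptors overlapped among the iMLL-ENL libraries, where the lowest tRNA-Pro-TGG value of 716 RPM lay under the highest tRNA-Pro-AGG value of 734 RPM, and the lowest tRNA-Pro-AGG value of 523 RPM under the highest tRNA-Pro-CGG value of 534 RPM. All other neighbours in the order were apart in both groups.

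The shares of the isoacceptors within an amino acid differed little between the groups. tRNA-Pro-AGG made up 32.5% ± 0.707 of proline tRNA in WT and 32.0% ± 0.610 in iMLL-ENL, tRNA-Pro-CGG 24.4% ± 0.743 and 23.1% ± 0.357, and tRNA-Pro-TGG 43.2% ± 1.37 and 44.9% ± 0.432 (SD, n = 4 each). The tRNA-Pro-CGG share was lower in every iMLL-ENL library than in every WT library, with 23.4% to 25.2% in WT and 22.6% to 23.4% in iMLL-ENL. Its log2 change of -0.08 ± 0.03 (SE) did not pass, with an adjusted p of 0.056 by limma, and it was -0.09 with 0.021 without WT replicate 4. Among threonine tRNAs the tRNA-Thr-AGT share averaged 10.7% ± 1.24 in the WT libraries and 12.3% ± 0.799 in the iMLL-ENL libraries (SD, n = 4 each), with an adjusted p of 0.11 by limma, and 0.030 without WT replicate 2. The tRNA-Pro-TGG share, with a change of 0.06 and an adjusted p of 0.12 by limma, had 0.08 and 0.042 without WT replicate 4. With all libraries none of the 6 shares passed the test, in a fit over 40 isoacceptor shares of which 50.0% were called in either direction.

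By copy, the proline genes were lower as a group on the deposited scale and the threonine genes were not. The test was run on rows with 10 RPM or more in at least 4 libraries, 633 of the 964 rows, among them all 15 proline copies and 5 of the 15 threonine copies. Of the proline copies 12 were called lower and 0 higher, against 8.53% lower and 20.4% higher over all tested rows. These were 6 of 6 with AGG, 3 of 3 with CGG and 3 of 6 with TGG. An unadjusted p under 0.05 by limma was seen in 14 of the 15. It was common in the table, with 278 of all 633 tested rows and 138 of the 258 tested tRNA rows of other amino acids. Their median log2 fold change was -0.54, with a range of -0.66 to -0.11, beside a median of 0.31 over all tested rows. Of the 5 tested threonine copies limma called 0, and 0 had an unadjusted p under 0.05. Their log2 fold changes ran from 0.02 to 0.23, with a median of 0.04. With libraries scaled to the total of all rows or of the tRNA rows, 0 proline copies were called lower. On the latter scale 3 threonine copies were called higher, as were 312 of the 633 tested rows.

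The count of proline copies changed when single libraries were left out. It was 0 without WT replicate 1, 1 without iMLL-ENL replicate 1, 2 without iMLL-ENL replicate 2 and 7 without iMLL-ENL replicate 3. It was 11, 10 and 9 without WT replicates 2, 3 and 4, and 9 without iMLL-ENL replicate 4. The log2 fold change of all proline tRNA ran from -0.61 to -0.43 over these runs, and was -0.52 without WT replicate 1. The calls over all tested rows moved as well, from 54 lower and 129 higher to 13 lower and 46 higher without WT replicate 1. Without iMLL-ENL replicates 1, 2 and 3 in turn, 19, 19 and 21 rows were called lower and 71, 85 and 66 higher. Without WT replicate 2 the calls over all tested rows grew to 98 lower and 260 higher. By a count that uses no model, in 13 of the 15 proline copies all iMLL-ENL libraries lay below all WT libraries, which held for 7.99% of all 964 rows. The exceptions were tRNA935-ProTGG and tRNA995-ProTGG, and in the latter the overlap was between 207.14 RPM in WT replicate 3 and 207.54 RPM in iMLL-ENL replicate 4.

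tRNA gene copies can be near-identical in sequence, and how reads that fit several copies were counted is not known here, so these counts may not be independent. Over the 8 libraries the proline copies followed each other closely, with a median Pearson correlation of 0.977 over 105 pairs, against 0.37 over 105 pairs of threonine copies and -0.20 over 225 mixed pairs. These correlations describe the same libraries, depths and group difference, and the threonine copies had fewer reads behind them, 12 to 559 per value against 59 to 2427 for proline.

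**Figure D2:**
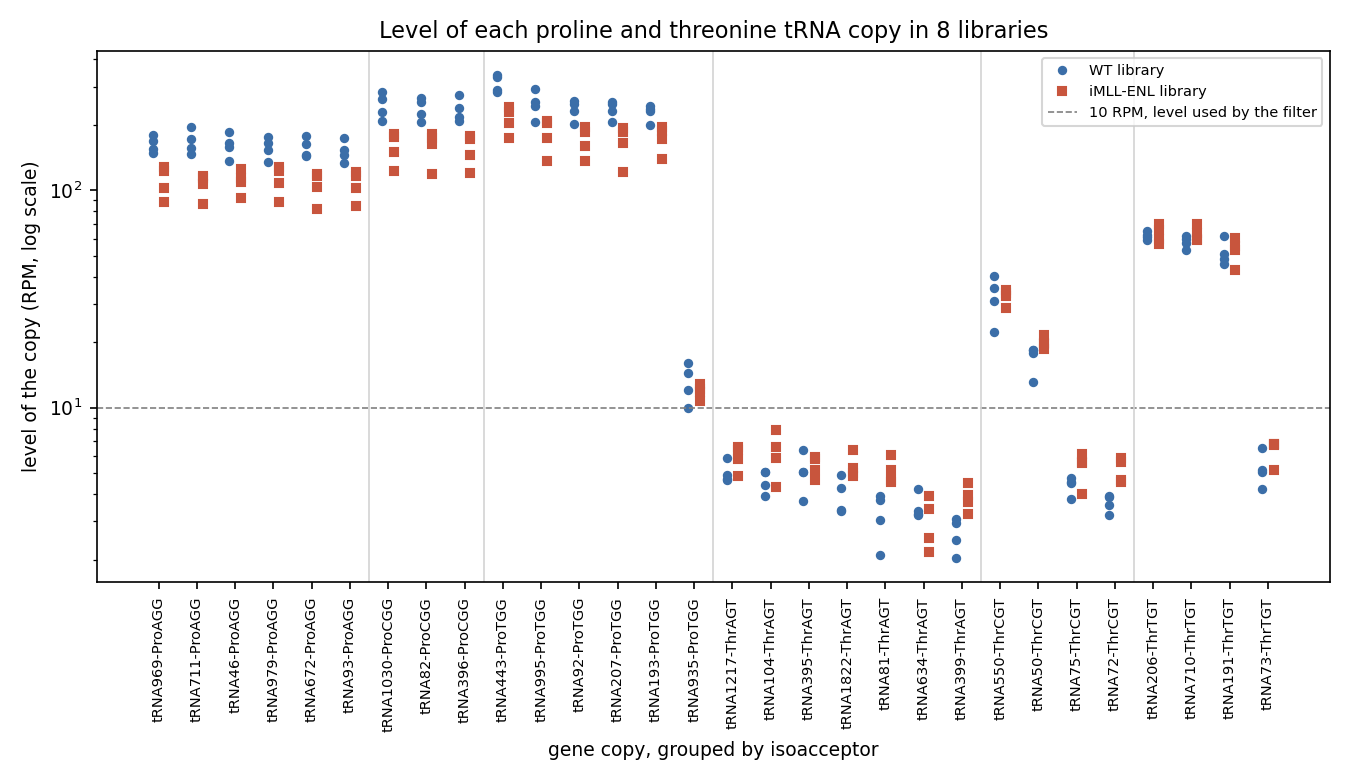
Level of each of the 30 copies (x axis, grouped by isoacceptor) in RPM on a log scale (y axis), with WT libraries as blue circles and iMLL-ENL libraries as red squares; the dashed line is the 10 RPM used by the filter. Of the proline copies 14 lie at 81.7 RPM or more in every library, and in 13 of these all red squares lie below all blue circles, while tRNA935-ProTGG and 10 threonine copies lie near or under the dashed line.

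The AGG copies were close in level, with means over 8 libraries of 129 to 137 RPM. The most abundant, tRNA969-ProAGG, had 169, 180, 149 and 155 RPM in the WT libraries and 103, 88.7, 123 and 129 RPM in the iMLL-ENL libraries. Its groups were separate, with a log2 fold change of -0.57 ± 0.15 (SE) and an adjusted p of 0.026 by limma. The largest fall among AGG copies was in tRNA711-ProAGG, from 168 ± 21.0 to 106 ± 13.5 RPM (SD, n = 4 each), and the smallest in tRNA979-ProAGG, from 157 ± 17.7 to 112 ± 17.9 RPM. Their log2 fold changes were -0.66 ± 0.15 and -0.50 ± 0.16 (SE), with adjusted p of 0.014 and 0.042 by limma, and the difference between the copies was not tested.

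The 3 CGG copies had means of 195 to 202 RPM. tRNA1030-ProCGG had 262, 283, 209 and 229 RPM in the WT libraries and 150, 122, 176 and 181 RPM in the iMLL-ENL libraries. All iMLL-ENL values lay below all WT values, with a log2 fold change of -0.65 ± 0.17 (SE) and an adjusted p of 0.023 by limma. The smallest fall of the 3 was that of tRNA82-ProCGG, at -0.59 ± 0.17 (SE) with an adjusted p of 0.030 by limma, from 238 ± 27.5 to 159 ± 28.3 RPM (SD, n = 4 each).

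The TGG copies were the most uneven of the proline genes. tRNA443-ProTGG was the most abundant of all 30 copies, with 340, 290, 283 and 331 RPM in the WT libraries and 204, 173, 243 and 230 RPM in the iMLL-ENL libraries. It was separate between groups and had the largest fall among the TGG copies, a log2 fold change of -0.55 ± 0.15 (SE) with an adjusted p of 0.026 by limma. The other abundant TGG copies had log2 fold changes of -0.51 to -0.40, of which tRNA207-ProTGG and tRNA92-ProTGG passed the test and tRNA995-ProTGG and tRNA193-ProTGG did not.

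tRNA935-ProTGG differed from the other proline copies in level. It had 12.04, 14.42, 9.98 and 16.0 RPM in the WT libraries and 12.2, 10.8, 11.8 and 12.9 RPM in the iMLL-ENL libraries. The groups overlapped, with WT holding both the highest and the lowest library, and the fitted log2 change was -0.11 ± 0.22 (SE) at an adjusted p of 0.75 by limma. Its values rest on 59 to 114 reads. Whether it changed differently from the other TGG copies was not tested.

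The threonine copies fell into 2 levels. 3 TGT copies and 2 CGT copies lay above the filter, and the 7 AGT copies, 2 CGT copies and 1 TGT copy had means of 3.24 to 5.82 RPM. tRNA206-ThrTGT had 59.2, 60.9, 64.9 and 62.2 RPM in the WT libraries and 65.5, 56.7, 59.5 and 69.9 RPM in the iMLL-ENL libraries. The groups overlapped, with a log2 fold change of 0.02 ± 0.13 (SE) and an adjusted p of 0.92 by limma. tRNA710-ThrTGT, the TGT copy with the highest change, had 57.9 ± 3.68 and 63.0 ± 5.08 RPM (SD, n = 4 each), a log2 fold change of 0.12 ± 0.13 (SE) and an adjusted p of 0.50 by limma.

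tRNA550-ThrCGT had 40.2, 22.2, 30.9 and 35.5 RPM in the WT libraries and 32.7, 28.8, 34.8 and 33.8 RPM in the iMLL-ENL libraries. WT replicates 1 and 2 were the highest and lowest of the 8 libraries, and the fitted log2 change was 0.04 ± 0.19 (SE) at an adjusted p of 0.89 by limma; it was -0.12 without WT replicate 2. tRNA50-ThrCGT had 18.5, 13.1, 18.4 and 17.9 RPM in the WT libraries and 19.7, 18.7, 19.9 and 21.7 RPM in the iMLL-ENL libraries. All iMLL-ENL values lay above all WT values, the nearest pair being 18.65 and 18.48 RPM, and the log2 fold change of 0.23 ± 0.18 (SE) had an adjusted p of 0.34 by limma.

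The low AGT copies were read 12 to 61 times per value. tRNA1217-ThrAGT, the most abundant of them, had 5.88, 4.68, 4.90 and 4.63 RPM in the WT libraries and 5.78, 4.85, 6.60 and 6.39 RPM in the iMLL-ENL libraries, with overlapping groups. Of all 15 threonine copies 4 had every iMLL-ENL library above every WT library, tRNA81-ThrAGT, tRNA399-ThrAGT, tRNA50-ThrCGT and tRNA72-ThrCGT, and such separation upward held for 29.3% of all rows. The share among threonine copies was therefore near that of the table.

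In the authors' deposited table, which holds a log2 fold change and a false discovery rate (FDR) for each row, 8 of the 15 proline copies had an FDR under 0.05 with a lower level in iMLL-ENL, against 11.9% of all rows. By anticodon these were 4 with AGG, 3 with CGG and 1 with TGG. The log2 fold changes of the proline copies in the authors' deposited table ran from -1.06 to -0.53, with a median of -0.94. Those of the threonine copies in the authors' deposited table ran from -0.62 to 0.26, with a median of -0.16, and 0 of 15 had an FDR under 0.05. The fold changes of the authors' deposited table were lower than those computed here by a median of 0.41 over tested rows.

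How much proline and threonine tRNA changed depends on what the libraries are scaled to, since the total of all tRNA rows was lower in iMLL-ENL. On the deposited scale the typical tRNA row was not lower in iMLL-ENL. There the 258 tested tRNA rows of other amino acids had a median log2 fold change of 0.03, with 41 lower and 51 higher. The median over all tested rows was 0.31, so they lay below it. Taken as a percent of all tRNA reads, proline tRNA was 1.05%, 0.982%, 0.861% and 1.17% in the WT libraries and 0.868%, 0.8%, 1.13% and 1.03% in the iMLL-ENL libraries. These groups overlapped. Threonine tRNA was 0.0894%, 0.0741%, 0.0906% and 0.109% in the WT libraries and 0.126%, 0.125%, 0.140% and 0.140% in the iMLL-ENL libraries, so that every iMLL-ENL library was higher, with a mean 1.46 times that of WT.

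When the libraries were scaled to the total of the tRNA rows, tRNA-Pro-AGG, tRNA-Pro-CGG and tRNA-Pro-TGG had log2 fold changes of -0.12, -0.17 and -0.04, none passing the test, with adjusted p of 0.58, 0.40 and 0.91 by limma. On the same scale tRNA-Thr-AGT, tRNA-Thr-CGT and tRNA-Thr-TGT rose by 0.74, 0.59 and 0.51, with adjusted p of 0.0016, 0.022 and 0.012 by limma. With TMM, a scaling by the trimmed mean of log ratios, the proline values were -0.96, -1.02 and -0.88 and passed, and the threonine values were -0.09, -0.24 and -0.33 and did not. Such changes of scale moved the median of all tested rows from -0.08 to 0.74. A scaling by 1 factor per library moves the isoacceptors and this median alike, so the distance between them is fixed by construction in all but quantile normalization. The proline isoacceptors lay at -0.94 to -0.78 relative to the median. The threonine isoacceptors lay at -0.25 to 0 relative to it, with the exception of tRNA-Thr-AGT at -0.44 after quantile normalization.

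**Figure D3:**
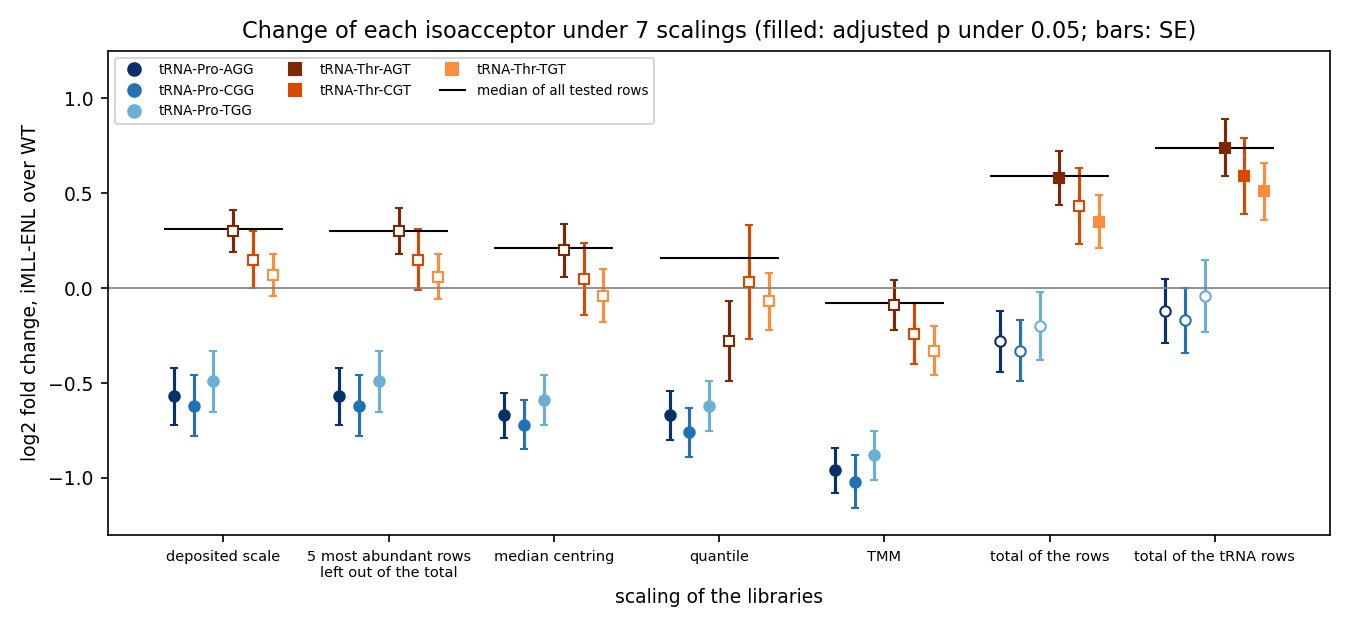
Log2 fold change, iMLL-ENL over WT, with its SE (y axis) of the 6 isoacceptors under 7 scalings of the libraries (x axis); proline isoacceptors are blue circles, threonine ones orange squares, filled where the adjusted p was under 0.05, and the black lines give the median of all tested rows. The whole pattern moves up or down with the scaling, from proline at -1.02 to -0.88 with TMM to threonine at 0.51 to 0.74 with the total of the tRNA rows, and the proline points stay below the threonine points.

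A ratio within a library does not depend on the scale. The proline sum was 11.8, 13.2, 9.50 and 10.8 times the threonine sum in the WT libraries and 6.90, 6.38, 8.02 and 7.36 times in the iMLL-ENL libraries. The groups did not overlap. The mean ratio fell from 11.3 ± 1.58 to 7.17 ± 0.696 (SD, n = 4 each), a log2 change of -0.65 ± 0.15 (SE) with an adjusted p of 0.0093 by limma over 210 pairs of amino acids, of which 47.6% were called in either direction. Without WT replicate 2 the change was -0.57 with an adjusted p of 0.0015 by limma. The call held in all 12 alternatives run, with changes of -0.73 to -0.57 and a highest adjusted p of 0.047 by limma.

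All 9 ratios of a proline to a threonine isoacceptor fell, in a fit over 1128 pairs of isoacceptors of which 44.1% were called in either direction. The largest fall was that of tRNA-Pro-CGG to tRNA-Thr-AGT, from 25.6 ± 1.37 to 13.6 ± 2.05 (SD, n = 4 each), a log2 change of -0.92 ± 0.15 (SE) with an adjusted p of 0.0043 by limma. The smallest was that of tRNA-Pro-TGG to tRNA-Thr-TGT, from 7.24 ± 0.98 to 4.92 ± 0.50 (SD, n = 4 each), a log2 change of -0.55 ± 0.16 (SE) with an adjusted p of 0.023 by limma. In the inosine-bearing pair, tRNA-Pro-AGG to tRNA-Thr-AGT, the ratio was 33.0, 36.4, 32.9 and 34.5 in the WT libraries and 16.4, 16.9, 21.1 and 20.4 in the iMLL-ENL libraries. The groups did not overlap in any of the 9 ratios, but how many of the 1128 pairs were separated in this way was not counted. The 9 ratios are formed from the same 6 sums, so they are not independent of each other. All 9 were called without WT replicate 2, and 5 of the 9 without iMLL-ENL replicate 2.

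**Figure D4:**
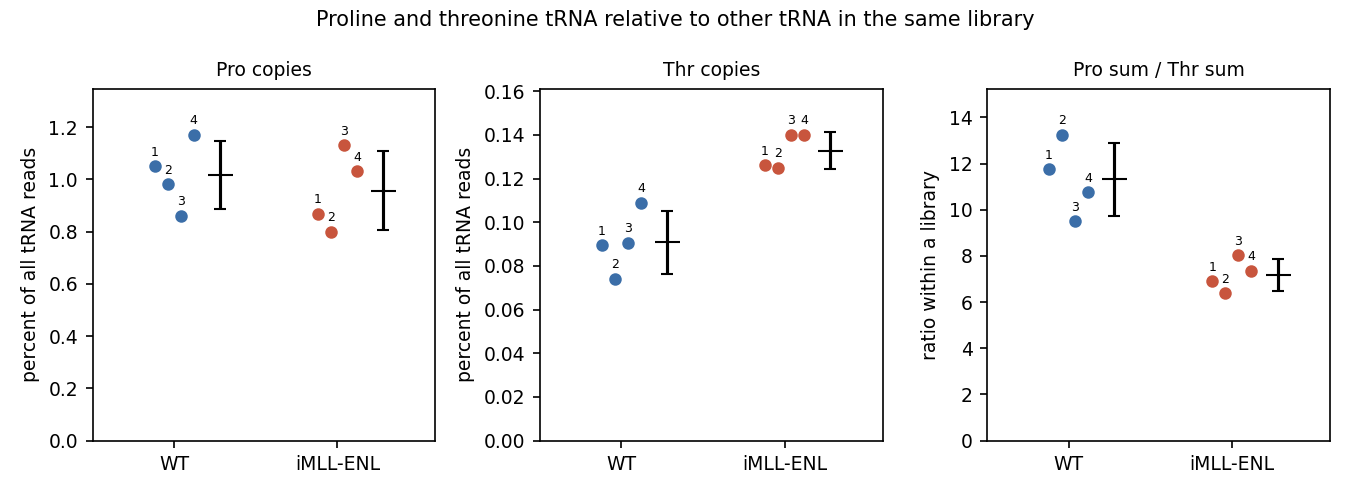
Proline tRNA (left) and threonine tRNA (middle) as a percent of all tRNA reads of a library, and the proline sum divided by the threonine sum (right), for 4 WT (blue) and 4 iMLL-ENL (red) libraries, with the mean and SD in black. The proline percent overlaps between groups, the threonine percent is higher in every iMLL-ENL library, and the ratio is 9.50 or more in WT and 8.02 or less in iMLL-ENL.

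Set against the other amino acids, proline tRNA was lower relative to 10 of 20 in iMLL-ENL, namely Ala, Asn, Ile, Lys, Met, Phe, Ser, Thr, Trp and Tyr, and higher relative to 1, His. Over all 210 pairs of amino acids 47.6% were called in either direction, so the share of calls for proline is near that over all pairs. Without WT replicate 2 proline was lower relative to 14 and threonine higher relative to 6. The log2 changes of the proline ratio ran from -1.21 ± 0.15 (SE) against Lys, with an adjusted p of 0.0020 by limma, to 1.48 ± 0.40 (SE) against His, with 0.018. Against Glu, whose tRNA is charged by the same fused synthetase, the change of -0.69 ± 0.26 (SE) did not pass, with an adjusted p of 0.056 by limma. Threonine tRNA was higher relative to 6, namely Arg, Asp, Cys, His, Pro and Val, and lower relative to 4, Asn, Ile, Lys and Tyr.

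**Figure D5:**
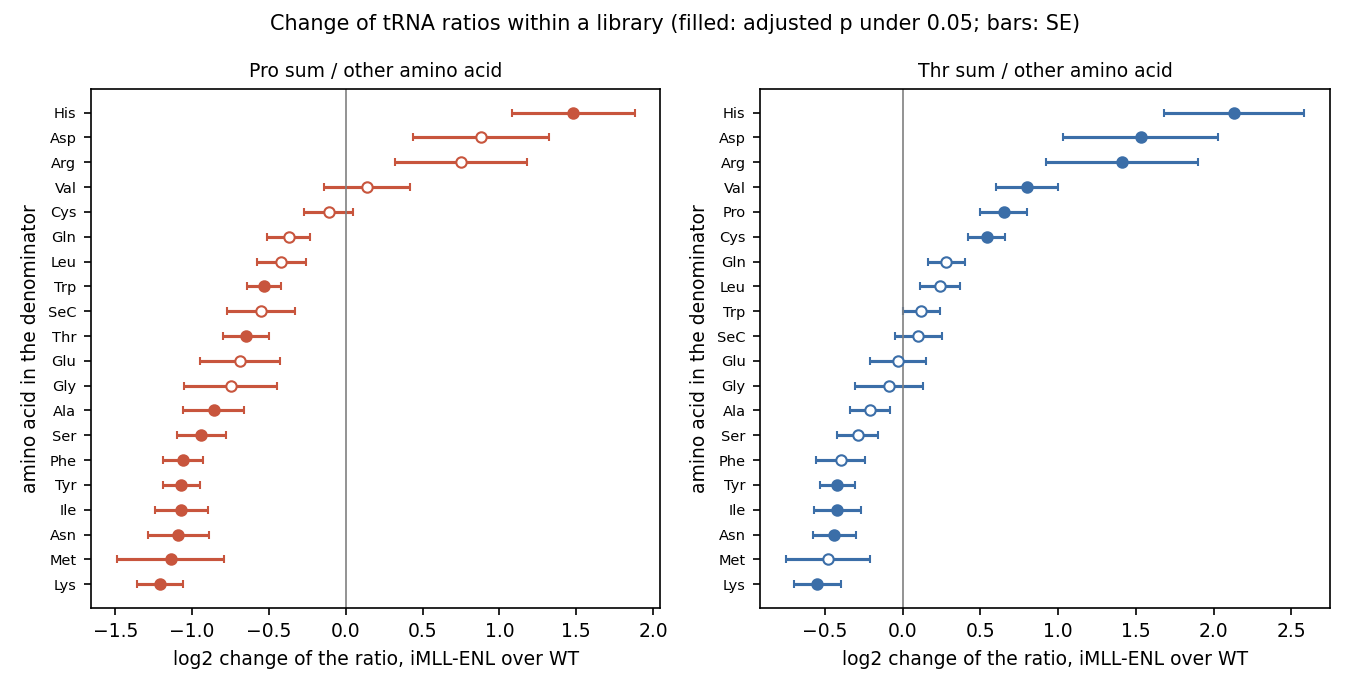
Log2 change, iMLL-ENL over WT, of the ratio of the proline sum (left) or threonine sum (right) to the sum of each other amino acid within a library (x axis, with SE), filled where the adjusted p was under 0.05; SeC is selenocysteine. Proline ratios run from -1.21 against Lys to 1.48 against His, and 10 of them were called lower, while 6 threonine ratios were called higher and 4 lower, against 47.6% called over all 210 pairs.

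Other tRNA rows give the setting for these counts. Of the 298 tRNA rows for neither proline nor threonine, 258 were tested, with 41 lower, 51 higher and a median log2 fold change of 0.03. In the other boxes of 4 codons that share their first bases, those of Ala, Gly, Val and parts of Leu, Ser and Arg, 102 rows were tested, with 19 lower, 9 higher and a median of -0.07. Of the other rows whose anticodon begins with A, as that of tRNA-Pro-AGG does, 41 were tested, with 1 lower, 7 higher and a median of 0.25. The 12 of 15 proline copies and 0 of 5 threonine copies called lower stand beside these as descriptions.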

How the data were processed

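Small RNA was sequenced from 4 WT and 4 iMLL-ENL samples, grouped by the genotype label. Per the file headers the authors deposited TPM, but the values are RPM: in each library all values below 30 RPM are whole multiples of a step within 0.0105 RPM. The authors also deposited a log2 fold change and mean log2 CPM, and a p-value with its FDR, per row. The genome build was GRCm38 per the submitters' processing notes. The aligner, counting, multiply mapped reads and molecular indexes are not given in sources used here.

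Values were tested as log2(RPM + 1) with limma 3.58.1 and statmod 1.5.0 in R 4.3.3, two-sided, with robust prior variance (trended for levels, not for ratios) and Benjamini-Hochberg adjustment at 0.05 over all rows, sums or ratios. Fold changes on this scale understate those of low rows. Sums had no filter. The prior pools variance over rows, so a p-value reflects more than the spread of its own row. The fits were tested on simulated data. Sums, shares and figures used Python 3.11.15, numpy 2.4.6 and pandas 2.3.3. No count model was run. The copies named in full were, per isoacceptor, the one with the highest mean and the tested ones with the highest and lowest log2 fold change; other names were given after their values were seen. Members and lists were chosen with earlier results of these data known. Scaling, pseudocount, filter, prior, weights, replicate block and leaving out each library were the alternatives.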

Additional observations from a re-analysis of the deposited data

Results flagged for a closer look

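In 106 groups of 4 libraries, over the proline and threonine copies, sums and shares, 4 held a library whose gap to the nearest other library took most of the range of its group, where chance alone gives about 1 in 20 groups. tRNA443-ProTGG made up 21.42% of tRNA-Pro-TGG in WT replicate 2, against 25.34% to 25.76% in the other WT libraries. tRNA50-ThrCGT was at 13.12 RPM in WT replicate 2, against 17.94 to 18.48 RPM in the other WT libraries. tRNA634-ThrAGT was at 4.23 RPM in WT replicate 3, against 3.22 to 3.36 RPM in the others. tRNA73-ThrTGT was at 5.18 RPM in iMLL-ENL replicate 2, against 6.76 to 6.83 RPM in the other iMLL-ENL libraries.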

How the results depend on the processing

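The limits are the scale, the number of libraries and, for the AGT copies of threonine, the depth. Of 358 values under alternatives for the 22 results that answer a comparison, 305 kept their direction and call (counts within 1.5 times), and of 220 for 11 named copies 171 did. The 305 include results with nothing called, such as proline copies called higher, at 0 in 20 of 20 alternatives. The count of proline copies called lower kept in 13 of 20. The call of tRNA-Pro-TGG kept in 13 of 20, and those of tRNA-Pro-AGG and tRNA-Pro-CGG in 18 of 20 each. The scaling that leaves the 5 most abundant rows out of the library total was chosen after seeing the data. Tests on reads recovered from the steps were not run, because the smallest value lay at 1 step in only 2 of the 8 libraries. Over rows past the filter alone tRNA-Thr-AGT has no value. Where a cause is not plain from the scaling itself, the cause was not tested.

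With the total of all rows as the scale, the changes were -0.28 for tRNA-Pro-AGG, -0.33 for tRNA-Pro-CGG, -0.20 for tRNA-Pro-TGG and -0.26 for all proline tRNA, none passing, and 0.58 for tRNA-Thr-AGT, 0.35 for tRNA-Thr-TGT and 0.40 for all threonine tRNA, all passing, with 0 proline copies called. With the total of the tRNA rows they were -0.12, -0.17, -0.035 and -0.093 for the proline values in that order, 0.74, 0.59 and 0.51 for tRNA-Thr-AGT, tRNA-Thr-CGT and tRNA-Thr-TGT and 0.56 for all threonine tRNA, with 0 of 15 proline copies lower and 3 of 5 threonine copies higher, where 16 of 633 rows were lower and 312 higher. tRNA935-ProTGG turned to 0.16 and 0.31 on these scales. With TMM the threonine sums turned to -0.085 (AGT), -0.24 (CGT), -0.33 (TGT) and -0.29 (all), and tRNA206-ThrTGT, tRNA50-ThrCGT, tRNA550-ThrCGT and tRNA710-ThrTGT to -0.37, -0.15, -0.34 and -0.27. Quantile normalization turned tRNA-Thr-AGT to -0.28, tRNA-Thr-TGT to -0.073, all threonine tRNA to -0.088, tRNA206-ThrTGT to -0.15 and tRNA710-ThrTGT to -0.023. Median centring turned tRNA-Thr-TGT to -0.036, tRNA206-ThrTGT to -0.081 and tRNA550-ThrCGT to -0.058. tRNA-Thr-AGT passed with a pseudocount of 10, at 0.24, and with sample quality weights, at 0.31. With those weights the shares of tRNA-Pro-CGG (-0.064) and tRNA-Thr-AGT (0.24) passed, the share of tRNA-Thr-CGT turned to -0.042 and tRNA550-ThrCGT to -0.15. The share of tRNA-Pro-CGG passed at -0.076 with no robust prior.

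Same-numbered WT and iMLL-ENL replicates deviated together with correlations of 0.389, 0.286, -0.133 and 0.42 for numbers 1 to 4. The highest correlations of these WT replicates with an iMLL-ENL replicate of another number were 0.129, 0.205, 0.292 and 0.047. WT replicates 1, 2 and 4 thus correlated best with their own number, and replicate 3 did not. The numbers were therefore not taken as pairs. With the replicate block 7 proline copies were called, tRNA-Pro-TGG stayed at -0.49 with an adjusted p of 0.062 by limma, and 3 of the 9 proline to threonine ratios were called.

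Leaving out 1 library at a time gave 0 to 11 proline copies called, 5 to 9 of the 9 ratios, -0.55 to -0.37 for tRNA-Pro-TGG, 0.25 to 0.35 for tRNA-Thr-AGT and -0.61 to -0.43 for all proline tRNA. The shares ran from -0.094 to -0.059 for tRNA-Pro-CGG, 0.039 to 0.076 for tRNA-Pro-TGG, 0.14 to 0.26 for tRNA-Thr-AGT, -0.051 to 0.12 for tRNA-Thr-CGT and -0.075 to -0.024 for tRNA-Thr-TGT. tRNA206-ThrTGT ran from -0.031 to 0.068 and tRNA550-ThrCGT from -0.12 to 0.16.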
